A study of Mus musculus with 8 samples.

Results

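*Cd80* and *Cd86* encode the B7 ligands B7-1 and B7-2, and both were read in mouse spleen after 7 days of R848. They are 2 of the 84 pathway genes on a quantitative PCR plate for Toll-like receptor (TLR) signalling and were taken by name. R848 (resiquimod) is a synthetic compound that activates TLR7, a receptor in endosomes. Mice received 1 mg of it per kg each day, or PBS in the Mock groups. The 3 strains were C57BL/6 wild-type mice, TLR7-/- mice, and IFNAR-/- mice, which lack the type I interferon receptor. Every sample was RNA from whole spleen pooled from 3 mice. The age and the breeding background of the deficient strains are not stated in what was used here. Each of the 4 deficient groups was 1 pooled sample. Each wild-type group was 2 pooled samples from separate experiments, and the deposited table gives only their mean. There are thus 8 samples in 6 groups and 6 values per gene. No value has a replicate error, no difference was tested, so every direction given is that of these pools and no wider.

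B7 ligands sit on antigen-presenting cells and bind CD28 on T cells, which gives the second signal a T cell needs beside its antigen receptor. They also bind CTLA-4, an inhibitory receptor of T cells. In spleen the ligands are found on dendritic cells, macrophages and B cells. CD86 is generally present at low levels on resting cells and comes up early on activation, while CD80 is typically scarcer at rest and comes up later. TLR ligands are known to raise both through MyD88 and NF-kB, and type I interferon also acts on both genes.

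Both genes lie on mouse chromosome 16 in the RefSeq annotation of build GRCm38.p6. *Cd86* spans chr16:36568956-36666158 and *Cd80* spans chr16:38457430-38495958, which leaves 1.79 Mb between them. The plate names its assays by UniGene cluster and gives no primer positions, so which transcript forms were amplified is not known. RefSeq's promoter table matched 1 of the 2 genes, *Cd80*, with 1 start site inside the annotated gene. The 250 bases before that start, chr16:38458683-38458932 on the plus strand, are shown 5′ to 3′ with the only match to the AP-1 motif TGANTCA in capitals.

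*Cd80* promoter: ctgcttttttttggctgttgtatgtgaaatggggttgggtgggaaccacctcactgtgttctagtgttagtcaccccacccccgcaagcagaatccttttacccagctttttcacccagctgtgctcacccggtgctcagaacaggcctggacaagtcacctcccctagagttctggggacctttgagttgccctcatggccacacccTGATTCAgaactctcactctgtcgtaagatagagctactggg

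The AP-1 match begins 42 bases before the start. Matches on either strand occurred in 6.75% of the 32851 promoter windows of the same length. The NF-kB consensus, found in 3.9% of the windows, and the interferon-stimulated response element consensus, found in 0.146%, had no match here. A match is a description of the letters and does not show that a factor binds.

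Levels are delta-Ct values in cycles: the cycle at which a gene crossed the detection threshold (Ct), less the average Ct of 3 reference genes (*Hprt1*, *Hsp90ab1* and *Gapdh*). A value 1 cycle higher means 2-fold less transcript, which is 1 log2 unit. In wild type *Cd80* had a delta-Ct of 8.40 with Mock treatment and 10.37 with R848. In the TLR7-/- samples *Cd80* stood at 7.20 in Mock and 7.73 in R848. In the IFNAR-/- samples it stood at 8.93 in Mock and 8.53 in R848. The *Cd80* level was thus highest in TLR7-/- Mock and lowest in wild-type R848, a span of 3.17 cycles or 9-fold.

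In wild type *Cd86* had a delta-Ct of 4.75 with Mock treatment and 5.72 with R848. In the TLR7-/- samples *Cd86* read 3.20 in Mock and 3.83 in R848, and in the IFNAR-/- samples 4.13 in Mock and 3.43 in R848. Its extremes fell in the same columns as those of *Cd80*, TLR7-/- Mock at the top and wild-type R848 at the bottom, and spanned 2.52 cycles or 5.74-fold. Between the extremes the order differed. For *Cd80* it ran TLR7-/- R848, wild-type Mock, IFNAR-/- R848, IFNAR-/- Mock, and for *Cd86* IFNAR-/- R848, TLR7-/- R848, IFNAR-/- Mock, wild-type Mock. Without replicate values it cannot be said which neighbours in either order differ beyond their spread. Among the 69 pathway genes read below the detection cap in every column, the median span was 2.42 cycles, with extremes of 0.87 and 5.67, so spans of this size were common on the plate.

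**Figure D1:**
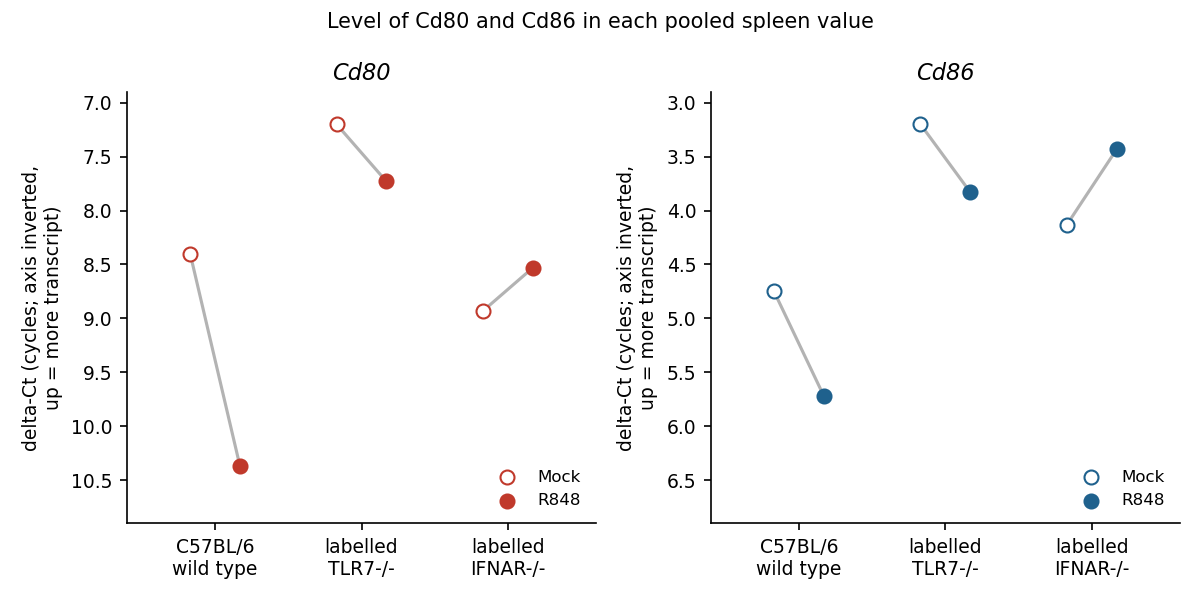
Delta-Ct of *Cd80* (left) and *Cd86* (right) in each strain, with open points for Mock and filled points for R848; the axes are inverted so that more transcript is higher, and both cover the same number of cycles. Each deficient point is 1 pooled sample and each wild-type point is the mean of 2, and both genes are lowest in wild-type R848.

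Readings were far enough from the detection limit to be measured. Ct values above 35 or blank had been set to 35, and a delta-Ct at that cap is only a limit. *Cd80* lay at least 3.50 cycles below the cap in every column, the least in IFNAR-/- Mock, and *Cd86* at least 8.30. Neither direction below therefore rests on a capped value in the deficient strains. In the wild-type means, a cap reached in only 1 of the experiments could not be recognised.

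The wild-type pair asks what sustained TLR7 stimulation does to these ligands. With R848 both were lower. *Cd80* was at 25.5% of its Mock level, a log2 difference of -1.97 (3.92-fold lower), and *Cd86* was at 51.1%, a log2 difference of -0.97 (1.96-fold lower). In the authors' deposited table the corresponding folds are -3.91 and -1.95. At a threshold of 2-fold, *Cd80* counted as lower and *Cd86* fell just short. Of the 84 pathway genes, 11 were at least 2-fold lower, or 13.1%, and 32 were at least 2-fold higher, or 38.1%.

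Against the rest of the plate, *Cd80* had the lowest response of the 77 genes read below the cap in both wild-type columns. Next above it was *Ripk2*, a kinase of NOD receptor signalling, at -1.77. *Cd86* was 12th from the bottom, between *Il6* at -1.12 and *Irf3*, an interferon-inducing transcription factor, at -0.87. The median of the 77 genes was 0.43, and relative to it *Cd80* stood at -2.40 and *Cd86* at -1.40. Over all 84 genes, those at the cap included, the median was 0.41 and the relative values were -2.38 and -1.38.

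RNA input was nominally 50 ng per reaction, yet the reference genes themselves came up at different cycles. Their mean Ct, which follows from the cap, was 21.85 in Mock and no more than 18.33 in R848 of the wild type, at least 3.52 cycles earlier. Adding this back gives a *Cd80* Ct of 30.25 in Mock and at most 28.70 in R848, and a *Cd86* Ct of 26.60 in Mock and at most 24.05 in R848. Before normalization both genes were therefore detected earlier with R848, by at least 1.55 and 2.55 cycles. The lower normalized levels mean that they came forward by fewer cycles than the reference genes did. The part of the reference shift in the result was not tested. In whole spleen, fewer cells of a type and less RNA per cell cannot be told apart.

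**Figure D2:**
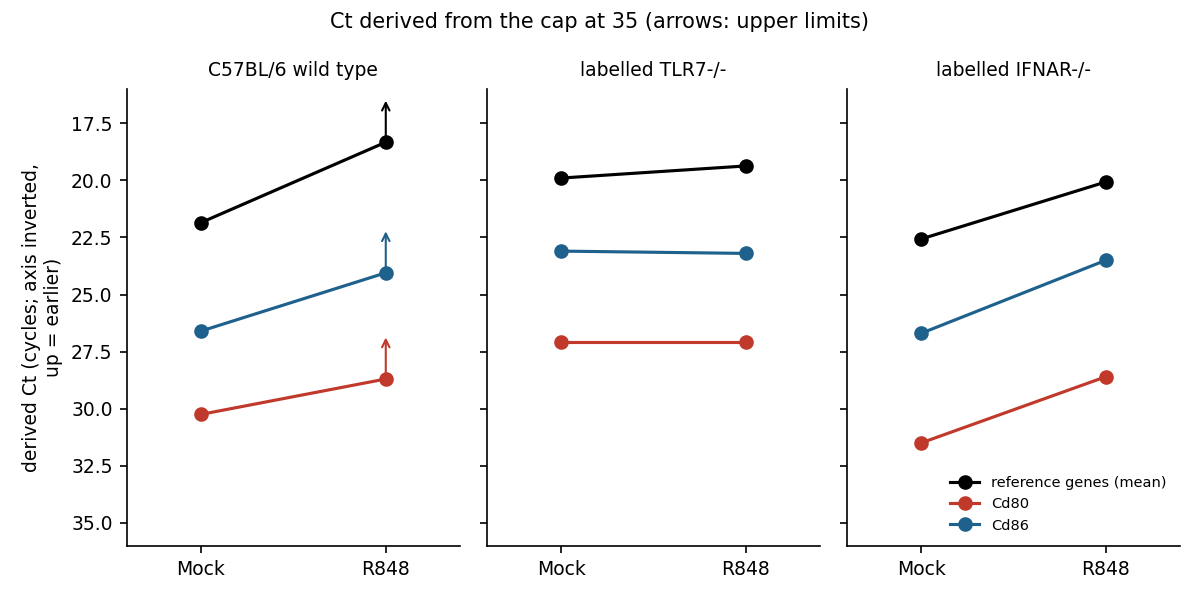
Ct of the reference genes (mean, black), *Cd80* (red) and *Cd86* (blue) in Mock and R848 for each strain, derived from the cap at 35 and plotted on an inverted axis in cycles. Arrows mark the wild-type R848 points as upper limits; lines of both ligands and of the reference genes run upward in wild type and in IFNAR-/-, and nearly level in TLR7-/-.

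The TLR7-/- pair asks what remains of the response without the receptor of R848. *Cd80* was at 69.3% of its Mock level (log2 difference -0.53, 1.44-fold lower) and *Cd86* at 64.6% (-0.63, 1.55-fold lower). The authors' deposited table has folds of -1.45 and -1.55. Neither gene reached 2-fold. Of 84 genes, 3.57% were 2-fold lower and 4.76% were 2-fold higher in this pair. Both ligands were still placed low on a plate that hardly moved, with a median response of 0.07. *Cd86* was 5th from the bottom of 78 genes, level with *Cebpb*, a transcription factor of myeloid cells. *Cd80* was 7th, level with *Fos*, a subunit of AP-1. Their derived Ct values were almost equal in Mock and R848, at 27.10 in both for *Cd80* and at 23.10 and 23.20 for *Cd86*. The reference genes came up at 19.90 and 19.37, that is 0.53 cycles earlier with R848, and the normalized differences of both ligands are about that size. The part of this shift in the result was not tested.

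*Tlr7* itself was read in these samples, at a delta-Ct of 9.20 in Mock and 9.33 in R848, against 12.00 and 9.47 in wild type. Whether the PCR product lies in the stretch removed from the gene is not stated in what was used here, and the reading is no check of the TLR7-/- label. No interferon receptor gene was on the plate to check the other label.

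The IFNAR-/- pair asks what part type I interferon signalling has in the response. Here both ligands were higher with R848, *Cd80* at 132% of Mock (log2 difference 0.40, 1.32-fold) and *Cd86* at 162% (0.70, 1.62-fold). The authors' deposited table has folds of 1.32 and 1.62. Neither reached 2-fold, while 53.6% of the 84 genes were 2-fold higher and 2.38% were 2-fold lower. Placed against 69 genes below the cap, *Cd80* was 10th and *Cd86* 19th from the bottom. *Cd80* shared its value with *Chuk*, an IKK kinase, *Nr2c2* and *Hrb*. The median of the 69 genes was 1.4, and relative to it *Cd80* was at -1.0 and *Cd86* at -0.70. Over all 84 genes, those at the cap included, the median was 1.25 and the relative values were -0.85 and -0.55. The sign of both responses thus depends on the scaling. With all 5 housekeeping genes as reference *Cd80* was at -0.22 and *Cd86* at 0.08. The reference genes came up 2.50 cycles earlier with R848 than with Mock, *Cd80* 2.90 cycles and *Cd86* 3.20 cycles earlier. The part of this shift in the result was not tested.

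**Figure D3:**
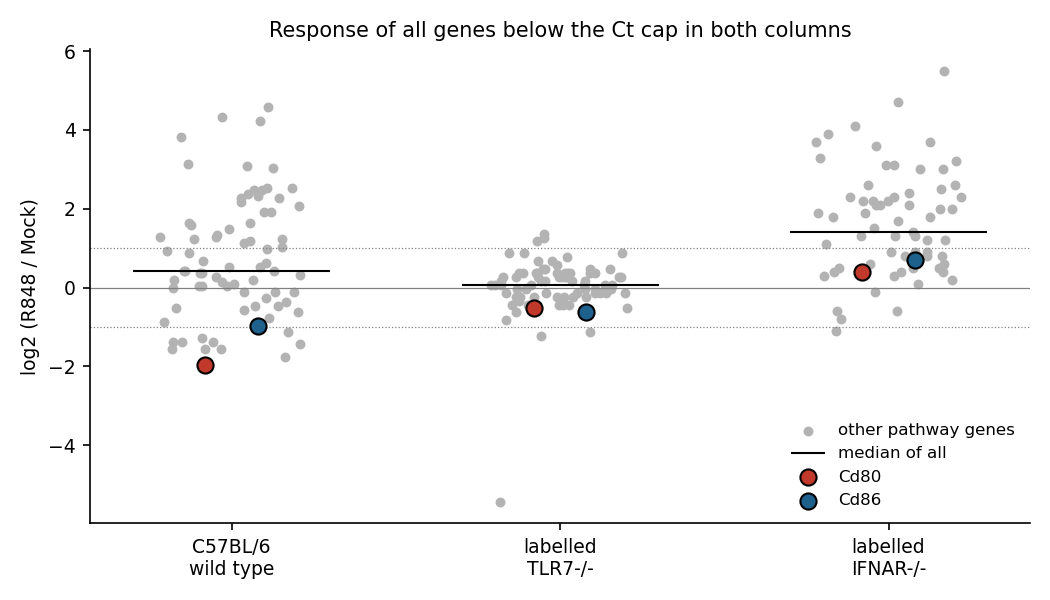
Log2 of R848 over Mock for every pathway gene below the cap in both columns of a strain, with *Cd80* in red, *Cd86* in blue, other genes in grey and the median as a bar; dotted lines mark 2-fold. Both ligands lie below the median gene in all 3 strains, *Cd80* at the very bottom in wild type.

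The rank within a strain does not depend on the reference genes, and each strain has its own Mock sample. By rank both ligands were in the lower part of the genes in each pair, namely 1st and 12th of 77 in wild type, 7th and 5th of 78 in TLR7-/-, and 10th and 19th of 69 in IFNAR-/-. By signed value only wild type and TLR7-/- were below 0 under every scaling of the delta-Ct values that was tried. In wild type *Cd80* was more than 2-fold lower under each of them, from -1.45 with *Hsp90ab1* alone to -3.20 with each column centred on its median gene. *Cd86* ran from -0.45 to -2.20 over the same settings and was 2-fold lower under every one other than *Hsp90ab1* alone and the 3 reference genes together.

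**Figure D4:**
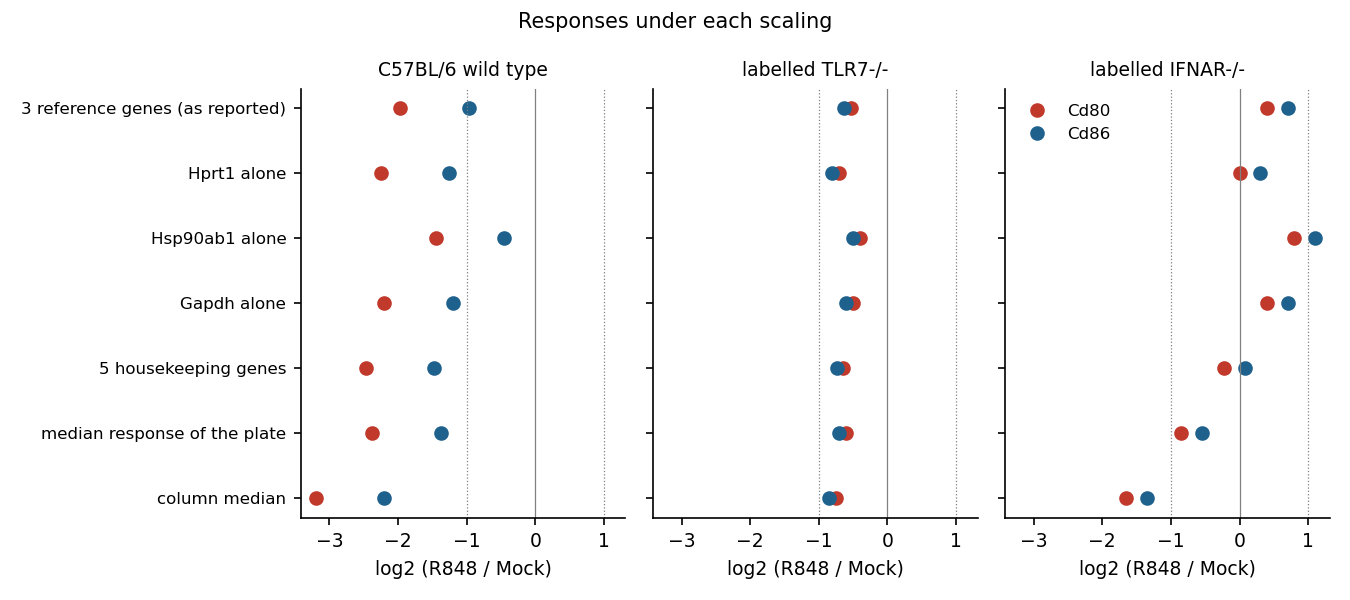
Log2 of R848 over Mock of *Cd80* (red) and *Cd86* (blue) under each scaling (rows) in each strain (panels), with the median response taken over all 84 genes, 0 as a solid line and 2-fold as dotted lines. In wild type and TLR7-/- all points lie left of 0, and in IFNAR-/- they lie on both sides.

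The response of *Cd80* minus that of *Cd86* is also free of the reference genes, which cancel. In wild type the *Cd80* delta-Ct exceeded that of *Cd86* by 3.65 cycles in Mock and 4.65 in R848, so the response of *Cd80* was 1 log2 unit (2-fold) below that of *Cd86*. In TLR7-/- the gap was 4 cycles in Mock and 3.90 in R848, a difference of 0.10, which is 1 step of the readings, recorded to 0.1 cycles. In IFNAR-/- it was 4.80 and 5.10 cycles, a difference of -0.30. The gap between the ligands thus changed least from Mock to R848 in TLR7-/- and most in wild type. The gap itself was widest in IFNAR-/-. For scale, 2 genes taken from the plate differed in response by a median of 1.5 in wild type, 0.40 in TLR7-/- and 1.30 in IFNAR-/-. The gaps themselves are not ratios of transcript number, since the 2 assays may amplify with different efficiency.

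Set side by side, the wild-type response of *Cd80* was 1.44 log2 units below that in TLR7-/- and 2.37 below that in IFNAR-/-. For *Cd86* the corresponding values were -0.34 and -1.67. The difference of *Cd86* from TLR7-/- turned to 0.05 with *Hsp90ab1* alone and is not a firm direction. Relative to the median response over all 84 genes in each strain, the wild-type response minus that in TLR7-/- and in IFNAR-/- was -1.77 and -1.52 for *Cd80* and -0.68 and -0.83 for *Cd86*.

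Mock samples of the strains also differed. *Cd80* was 2.3-fold lower in wild-type Mock than in TLR7-/- Mock (log2 difference -1.20), and *Cd86* was 2.93-fold lower (-1.55). With each column centred on its median gene these differences were -0.18 and -0.53, and with *Hprt1* alone that of *Cd80* was -0.95. This followed the plate, on which 53.3% of the 75 genes below the cap were at least 2-fold lower in wild-type Mock, with a median of -1.05. Against IFNAR-/- Mock, wild-type *Cd80* was 1.44-fold higher (0.53, turning to -0.23 with each column centred on its median gene) and *Cd86* was 1.54-fold lower (-0.62). TLR7-/- Mock was thus the highest Mock sample for both ligands, while wild type and IFNAR-/- changed places between them.

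Among the R848 samples the wild type stood lowest for both ligands. *Cd80* in wild-type R848 was 6.23-fold lower than in TLR7-/- R848 (-2.64) and 3.58-fold lower than in IFNAR-/- R848 (-1.84). *Cd86* was 3.71-fold (-1.89) and 4.89-fold (-2.29) lower. Of the plate, 31.6% of 79 genes were 2-fold lower in wild type than in TLR7-/- R848, and 33.8% of 74 genes were lower than in IFNAR-/- R848. In the first comparison *Cd80* was 2nd and *Cd86* 10th from the bottom, and in the other *Cd80* was 8th and *Cd86* 4th. In Mock against TLR7-/- they were 32nd and 24th of 75, and against IFNAR-/- 37th and 12th of 70. With TLR7-/- Mock in place of wild-type Mock as the control, the wild-type response was -3.17 for *Cd80* and -2.52 for *Cd86*.

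The genes whose pattern over the 6 columns was closest were found by the root mean square difference of delta-Ct, after each gene was centred on its own mean, over 68 other genes below the cap in every column. Nearest to *Cd80* was *Nfkbia*, the inhibitor of NF-kB, at 0.26 cycles. *Il12a*, a subunit of interleukin-12, followed at 0.32, then *Lta*, lymphotoxin alpha, at 0.47, and *Ripk2* at 0.48. The median gene was 1.09 cycles from *Cd80*. *Nfkbia* had responses of -1.57 in wild type, -0.43 in TLR7-/- and 0.80 in IFNAR-/-, and *Il12a* of -1.27, -0.03 and 0.30. Nearest to *Cd86* were *Tbk1*, a kinase upstream of IRF3 (0.42), *Il12a* (0.42), *Chuk* (0.44) and *Nfkbia* (0.48), with the median gene at 1.05. The likeness of *Tbk1* and *Chuk* lay in the levels across strains more than in the wild-type response, which was 0.03 for *Tbk1* and 0.13 for *Chuk*. *Cd80* and *Cd86* were 0.53 cycles apart, 6th nearest seen from *Cd80* and 8th seen from *Cd86*. All 6 values share the reference genes of their column, and the likeness is a description.

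**Figure D5:**
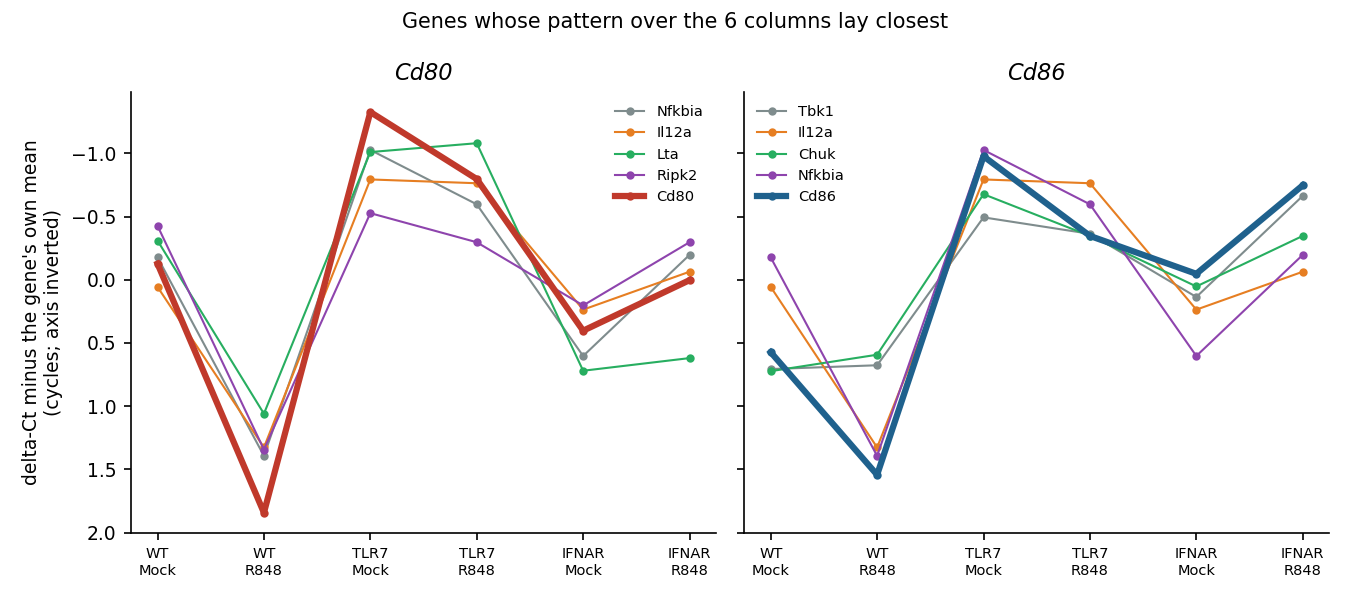
Delta-Ct of each ligand (thick line) and of its 4 nearest genes (thin lines) in the 6 columns, each gene centred on its own mean, in cycles on an inverted axis. The 4 genes nearest *Cd80* all drop in wild-type R848, while *Tbk1* and *Chuk* in the *Cd86* panel do not.

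Upstream of the ligands, several genes on the route of R848 were higher in wild type. Of 6 (*Tlr7*, *Tlr8*, *Myd88*, *Irak1*, *Irak2*, *Traf6*), 3 were at least 2-fold higher, none was lower and *Irak1*, at the cap in Mock, had an open direction. The median of those with a known direction, bounds included, was 2.48, against 0.43 for the genes of the plate counted the same way. Of the whole plate 38.1% were 2-fold higher in wild type and 13.1% lower, and in IFNAR-/- 53.6% were higher and 2.38% lower. The plate's shares in TLR7-/- were 4.76% higher and 3.57% lower. In TLR7-/- none of the 6 was 2-fold away (median 0.17, plate 0.07), and in IFNAR-/- 5 were higher (median 2.30, plate 1.5). Of 10 NF-kB genes, 2 were higher in wild type (*Nfkb1*, a subunit, at 2.33, and the inhibitor *Tnfaip3*) and *Nfkbia* was lower, with a median of 0.15. None was 2-fold away in TLR7-/- (median 0.07) and 6 were higher in IFNAR-/- (median 1.60). Interferon-response genes had 2 of 3 higher in wild type (*Eif2ak2*, the kinase PKR, at 3.83, and *Irf1* at 1.93), none in TLR7-/- and 3 of 3 in IFNAR-/-. With each column centred on its median gene, 1 of these 3 was higher and 1 lower in wild type, and 2 were higher in IFNAR-/-. Of the NF-kB genes 1 was then higher and 6 lower in wild type, and 1 higher and 4 lower in IFNAR-/-. Of the route, 3 were then higher and 1 lower in wild type, and 1 was higher in IFNAR-/-. The 84 genes of the plate then had 15 higher and 32 lower in wild type, and 14 higher and 29 lower in IFNAR-/-. Under the other scalings the route's median in wild type and IFNAR-/- was above 0 throughout, while that of the NF-kB genes turned below 0 in wild type under every scaling except *Hsp90ab1* alone, down to -1.08, and in IFNAR-/- to -0.45 with each column centred on its median gene. The TLR7-/- medians of 0.17 and below likewise turned below 0 with column centring. Those of the NF-kB and interferon-response genes were also below 0 with *Hprt1* alone (-0.10 each) and all 5 housekeeping genes (-0.04 each).

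Cytokines that antigen-presenting cells make beside the B7 ligands were mixed in wild type. Of 6, *Il10* (4.23), which restrains antigen presentation, and *Il1a* (1.28) were higher, and *Il12a* (-1.27) and *Il6* (-1.12) were lower. Of the whole plate, 38.1% were 2-fold higher and 13.1% lower in wild type. None of the 6 was 2-fold away in TLR7-/-, where 4.76% of the plate was higher and 3.57% lower. In IFNAR-/- 5 of 6 were higher, the exception being *Il12a* at 0.30, against 53.6% of the plate. With column centring 1 was higher and 2 were lower in wild type, while 3 were higher and 1 lower in IFNAR-/-, where the median went from 2.85 to 0.80. With the same centring the 84 genes of the plate had 15 higher and 32 lower in wild type, and 14 higher and 29 lower in IFNAR-/-. In IFNAR-/- Mock *Il10* and *Il6* were at the cap, so their values there are lower bounds. Products of T cells that follow CD28 co-stimulation were lower in wild type in 3 of 4, namely *Il2* (-1.57), the T-cell growth factor, *Csf2* (-1.37), a myeloid growth factor, and *Lta* (-1.37), while *Ifng*, encoding interferon gamma, stood at 0.38. The median was -1.37 against 0.43 for the plate. In TLR7-/- none of the 4 was 2-fold away (median -0.23). In IFNAR-/- *Ifng* was higher (1.20), *Il2* had an open direction, and the median was 0.80 against 1.5 for the plate. The wild-type median of these products was below 0 under every scaling, but with *Hsp90ab1* alone only 1 of 4 was 2-fold lower, and neither *Il12a* nor *Il6* was. The whole plate had 5 genes 2-fold lower in wild type with *Hsp90ab1* alone. The IFNAR-/- median of the T-cell products turned to -0.45 relative to the median response and to -1.25 with column centring. In wild-type Mock, *Il1a* (delta-Ct 12.70), *Il6* (12.50) and *Csf2* (12.30) lay close to the cap at 13.15. A cap reached in only 1 of the experiments could not be recognised there, so their wild-type responses are less sure. *Csf2* also lay close to the cap in IFNAR-/- Mock (delta-Ct 12.23, cap 12.43). Its response of 0.80 is the IFNAR-/- median of the T-cell products, which is thus less sure too.

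Markers of the cells that carry the ligands moved in both directions, and their part in the result was not tested. The defining markers *Ms4a1*, *Itgax*, *Itgam* and *Cd3e* were not among the genes read, so the cell makeup of the spleens could not be checked. Of 3 B-cell associated genes, *Btk*, a kinase that acts behind the B-cell receptor, was lower in wild type (-1.57), *Ly86* stood at -0.47 and *Tlr9* was higher (1.03). Of 7 myeloid markers, 3 were higher in wild type (*Cd14*, *Clec4e* and *Tlr4*, the last at 4.58) and *Cebpb* was lower (-1.37), with a median of 0.53, or -0.70 with column centring. Of the whole plate, 38.1% were 2-fold higher and 13.1% lower in wild type. The number of myeloid markers higher in wild type was 4 with *Hsp90ab1* alone and 2 with *Hprt1* or *Gapdh* alone. It was 1 with 5 housekeeping genes or column centring. The plate's number higher, of 84 genes, moved too. It was 39 with *Hsp90ab1* alone, 27 with *Hprt1* alone and 29 with *Gapdh* alone. With 5 housekeeping genes it was 22, and with column centring 15. *Tlr9* was 2-fold higher only with the 3 reference genes together or *Hsp90ab1* alone. In IFNAR-/- 4 of 7 were higher, a share near the 53.6% of the plate, and *Cd14* was lower. With column centring 1 was higher and 3 were lower there (median -0.75), against 14 higher and 29 lower of the 84 genes of the plate. In TLR7-/-, where 4.76% of the plate was higher and 3.57% lower, *Cd14* alone was 2-fold away. *Cd14* was at the cap in TLR7-/- Mock and in IFNAR-/- R848, so both of these differences are bounds. *Cd14* and *Btk* also lie in the first 4 wells, whose values stood apart in the deficient strains. Of the T and NK cell genes *Il2*, *Ifng* and *Lta*, 2 of 3 were lower in wild type and none in TLR7-/-, and 1 was higher in IFNAR-/-. All of these are also among the T-cell products given above, so their values are not a separate observation.

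The ligands occupy the fifth and sixth wells of the plate, next to 4 wells whose values stood apart in the deficient strains. *Btk* in the first well had a delta-Ct of 4.10 and 5.67 in wild-type Mock and R848 and was at the cap in all 4 deficient samples. *Casp8* in the second read 6.00 and 4.77 in wild-type Mock and R848, and 10.60 and 11.83 in TLR7-/-. It was at the cap in IFNAR-/- Mock and R848. *Cd14* in the fourth well was at the cap in TLR7-/- Mock and IFNAR-/- R848, and *Ccl2* in the third was at the cap in IFNAR-/- Mock. *Cd80* and *Cd86* showed no capped value in any sample. No control value for a misplaced well was available in the tables used here.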

How the data were processed

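The authors read 84 pathway genes and 5 housekeeping genes by real-time PCR on an RT² Profiler plate. Per the file headers, the deposited delta-Ct is the Ct of a gene minus the mean reference Ct, in cycles, a log2 scale. Per the series' design text, Ct above 35 or blank was set to 35, and the wild-type values summarise 2 experiments. The authors' deposited fold, a ratio of R848 over Mock, was checked against the fold computed from the delta-Ct values, and differed by no more than 0.01 of a fold or 0.01 cycles for all 89 genes in the 3 tables.

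The name of a table gave the strain, and its columns gave the treatment. The 6 delta-Ct columns were used, and another 6 columns of per-sample values, which restate them, were not. Wild-type readings moved in steps of 0.05 cycles and the others in steps of 0.1.

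A log2 difference is the Mock delta-Ct less the R848 delta-Ct. The highest delta-Ct shared by several genes was taken as the cap, and 35 minus it as the reference Ct. Wild-type R848 had only 1 gene at its highest value, which gives a limit. Genes with an open direction were not counted as higher or lower. The exact test foreseen for wild type needed separate experiments and was not run. The rule for calls was tried on simulated data, which gives no replicate error for the values reported here. Named genes are the ligands, 4 nearest genes for each, rank neighbours, and list members at 2-fold in wild type or at an extreme. *Irak1*, *Ly86*, *Ifng*, *Casp8*, *Ccl2* and lineage markers were named besides. The members, 8 gene lists and alternatives were chosen with earlier results of these data known. Python 3.11.15, pandas 2.3.3 and numpy 2.4.6 were used.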

Additional observations from a re-analysis of the deposited data

Results flagged for a closer look

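*Cd80* was lower with R848 in wild type (-1.97 on the log2 scale) and in TLR7-/- (-0.53), and higher in IFNAR-/- (0.40). *Cd86* was likewise lower in wild type (-0.97) and in TLR7-/- (-0.63), and higher in IFNAR-/- (0.70). The opposite signs drew attention to both genes. The differences were not tested, since each deficient value is 1 pooled pair and the wild-type value is a mean of 2 experiments whose separate signs were not analysed here. Relative to the median of the genes below the cap in both columns the sign was the same in all 3 strains, with -1.0 for *Cd80* and -0.70 for *Cd86* in IFNAR-/-, or -0.85 and -0.55 against the median of all 84 genes.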

How the results depend on the processing

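No paired analysis was possible because the wild-type table holds 1 mean per treatment, and leaving out an experiment was not run for the same reason. Values count as moved when they differ by more than 0.1 cycles, and the cause was not tested. Settings are listed in the order *Hprt1* alone, *Hsp90ab1* alone, *Gapdh* alone, 5 housekeeping genes, column median, and median response of all 84 genes (the last chosen after seeing the data). *Cd80* in wild type was -2.25, -1.45, -2.20, -2.47, -3.20 and -2.38, and *Cd86* was -1.25, -0.45, -1.20, -1.47, -2.20 and -1.38. In TLR7-/- *Cd80* was -0.70, -0.40, -0.50, -0.64, -0.75 and -0.60, and *Cd86* was -0.80, -0.50, -0.60, -0.74, -0.85 and -0.70. In IFNAR-/- *Cd80* was 0.00, 0.80, 0.40, -0.22, -1.65 and -0.85, and *Cd86* was 0.30, 1.10, 0.70, 0.08, -1.35 and -0.55. With TLR7-/- Mock as control, *Cd80* was -3.17 in wild type and -1.33 in IFNAR-/-, and *Cd86* was -2.52 and -0.23. With no reference, chosen after seeing the data, *Cd80* was at least 1.55 in wild type, 0.00 in TLR7-/- and 2.90 in IFNAR-/-, and *Cd86* was at least 2.55, -0.10 and 3.20. Wild type minus TLR7-/- was -1.55, -1.05, -1.70, -1.83, -2.45 and -1.77 for *Cd80*, and -0.45, 0.05, -0.60, -0.73, -1.35 and -0.68 for *Cd86*. Wild type minus IFNAR-/- was -2.25, -2.25, -2.60, -2.25, -1.55 and -1.52 for *Cd80*, and -1.55, -1.55, -1.90, -1.55, -0.85 and -0.83 for *Cd86*. The Mock difference of *Cd80* between wild type and IFNAR-/- was -0.23 with the column median. The response of *Cd80* minus that of *Cd86* could not move under any scaling, since each shifts both genes alike. In wild type 15 genes were higher and 32 lower with the column median, 21 and 2 at 3-fold, 5 lower with *Hsp90ab1* and 17 lower with 5 housekeeping genes. In TLR7-/- 7 were higher with *Hsp90ab1*, 10 and 6 were higher and lower at 1.5-fold, 1 and 1 at 3-fold, and 1 lower without the first 4 wells. In IFNAR-/- 14 were higher and 29 lower with the column median. There 5 were lower with *Hprt1*, with 5 housekeeping genes or at 1.5-fold, and 1 was lower with *Hsp90ab1*, at 3-fold, without capped genes or without the first 4 wells. By correlation in place of the root mean square difference, 3 of the 4 nearest genes were shared for each ligand.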
